A study of Mus musculus with 12 samples.

Results

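The subunits of the mitochondrial respiratory chain and of the ATP synthase that are encoded in the nucleus were examined in mouse small intestine after a diet low in polyunsaturated relative to saturated fatty acids (the low P/S diet), set against a control high-fat diet. Members were chosen by gene symbol alone, as genes whose symbol starts with Nduf, Uqcr, Cox4 to Cox8 or Atp5, the genes Sdha, Sdhb, Sdhc and Sdhd, and Cyc1, with assembly factors dropped. This gave 83 of 19937 genes on the arrays, of which 36 belonged to complex I, 4 to complex II, 9 to complex III, 17 to complex IV and 17 to the ATP synthase (complex V). Of these, 80 were bright enough to be tested, and Ndufa4l2, Cox7b2 and Cox8b were not.

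The tissue came from male wild-type FVB mice with a labelled age of 8 weeks, fed the low P/S diet (6 arrays) or the control high-fat diet (6 arrays) for 8 weeks. Both diets were therefore given to animals of one sex and one strain. Neither the segment of the small intestine nor the time of dissection or last meal is given in the labels. Array medians of the deposited intensity lay between 91.9 and 99.5, and precision is limited by there being 6 arrays per diet. According to the design text these 6 are biological replicates. Differences are given on the log2 scale as low P/S minus control ± the standard error from limma, group intensities are geometric means over 6 arrays, and a gene passed at an adjusted p under 0.05 (Benjamini-Hochberg over the 11962 genes tested).

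Complexes I and II take electrons from NADH and succinate and hand them to ubiquinone, complex III passes them on to cytochrome c, and complex IV hands them to oxygen. Complexes I, III and IV pump protons across the inner mitochondrial membrane as they do so, and complex V lets the protons flow back to make ATP. The villus epithelium of the small intestine is rich in mitochondria, which serve the cost of nutrient uptake and chylomicron export. Complexes I, III, IV and V also contain subunits encoded in mitochondrial DNA, while complex II is built from nuclear genes alone.

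Most of these genes had modestly more transcript on the low P/S diet. Of the 80 tested members, 53 rose (66.2%), against 17.8% of all genes tested. A single member, Cox6b2, fell (1.25%), against 7.87% of all genes tested, and 26 did not pass. The median difference of the members was 0.21, a change of 15.4%, and the interquartile range of the differences lay between 0.15 and 0.28. Over all genes tested the median was 0.02. The point estimate was above 0 for 76 of the 80 members, against 55.8% of all genes. The differences were small: Cox7a1 alone reached 1.5-fold, as did 236 genes of the whole array. All 6 low P/S arrays lay above all 6 control arrays for 23 members (28.8%), against 6.86% of all genes tested. They lay below for 1 member, with 3.9% of all genes as the background. Because brighter probe sets were called more often, the 67 members at an intensity of 500 or more were also set beside the 2585 genes of that brightness. Of these members 48 rose (71.6%) and 0 fell in the limma fit, all 67 having a point estimate above 0, against 27.1% and 14.6% of the genes of like brightness. Their medians were 0.21 for the members and 0.07 for the genes of like brightness.

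**Figure D1:**
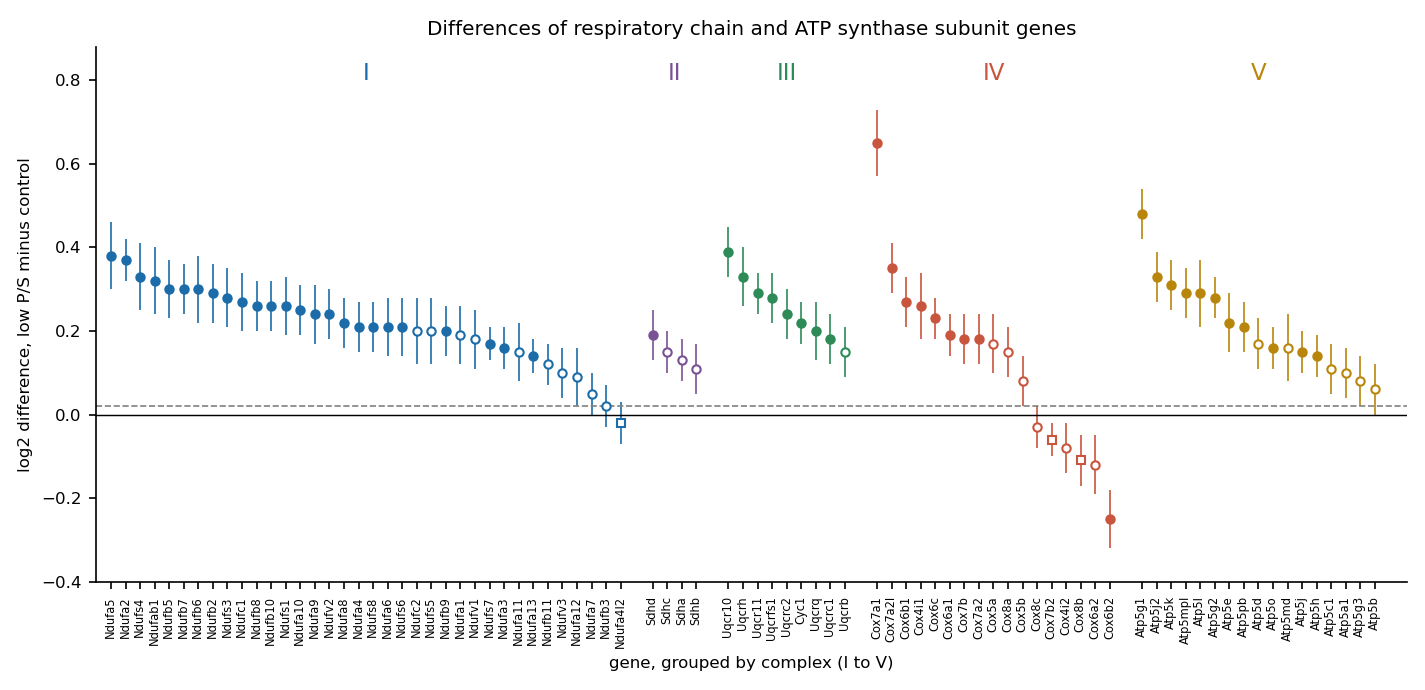
Log2 difference, low P/S minus control (vertical axis), for each of the 83 member genes (horizontal axis), grouped by complex I to V. Points are limma estimates and bars are ± 1 standard error; filled points passed, open circles did not pass, open squares were too dim to test, and the dashed line is the median of all genes tested. Complexes I, II, III and V lie above 0 in every tested member, while complex IV runs between Cox7a1 at 0.65 and Cox6b2 at -0.25.

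The scaling of the deposited values bears on the size of this shift. The mean intensity per array lay between 281 and 296 on low P/S arrays and between 266 and 289 on control arrays, with control arrays 3 and 6 lowest at 266 and 269. After quantile normalization, which gives all arrays the same distribution, 37 members passed as higher and 1 as lower, with a median of 0.13. Under that scaling 1773 genes of the whole array were higher (14.8%) and 1543 lower, against 2132 and 942 with the deposited scaling. After median centring 34 members were higher, against 12.4% of all genes, and the median of the members was 0.15. Under it 1744 genes of the whole array were lower. Of the 2585 genes at an intensity of 500 or more, 20.5% were higher after quantile normalization and 20.5% after median centring, against 27.1% with the deposited scaling. The member counts here are not limited to that brightness.

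The shift was present on each low P/S array. Expressed as log2 distance from the control mean, the median over the 80 tested members lay between 0.14 (array 6) and 0.25 (array 1) on the low P/S diet. On the control diet it lay between -0.13 (array 3) and 0.07 (array 1), so the diets did not overlap. Within complexes I, III, IV and V the array medians did not overlap either. Those of complex II lay between 0.07 and 0.20 on low P/S arrays and between -0.17 and 0.11 on control arrays, which overlap. Single arrays were extreme for many members at once. Of the controls, array 3 had the lowest value in 45 of the 80 members and array 1 the highest in 32, while low P/S array 6 was the lowest of its diet for 30. The same counts were not made over all genes tested, and control array 3 also had the lowest mean intensity of all arrays (266). Without control array 3 the number of members that rose was 39, and without control array 6 it was 41. Of all genes, 14.4% rose without control array 3 and 13.5% without control array 6, against 17.8% with all arrays.

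**Figure D2:**
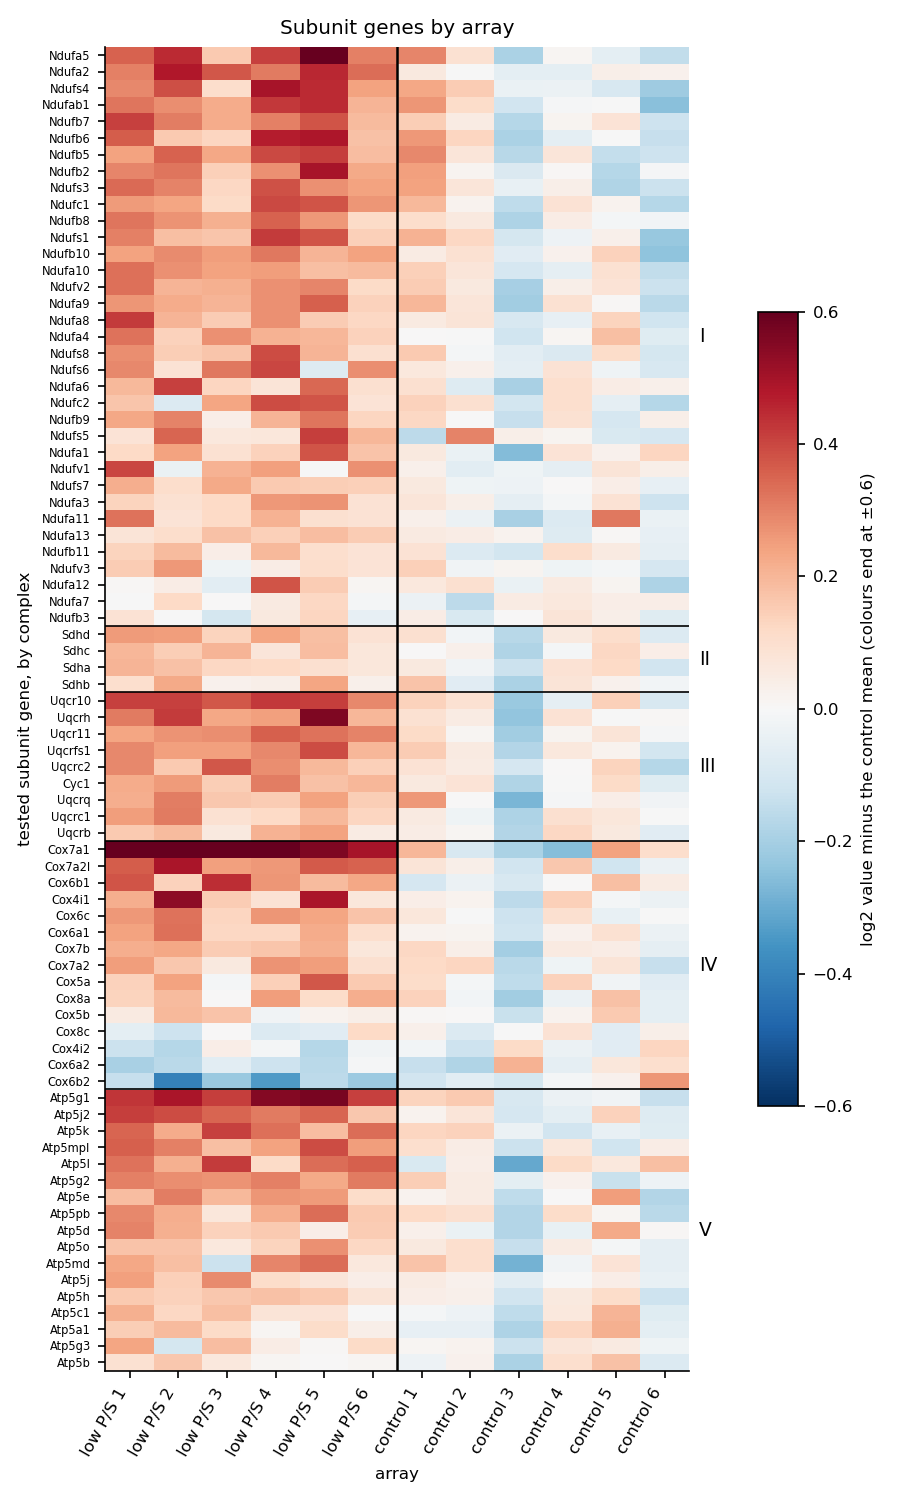
Log2 value of each tested member minus its control mean, by colour, for the 12 arrays (columns, low P/S left and control right) and the 80 tested genes (rows, complexes I to V from top to bottom, ordered by difference within each). Red is above and blue below the control mean; colours end at ± 0.6. The low P/S columns are red in most rows, control array 3 is the palest blue to blue column, and the lower rows of complex IV run the other way.

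Whole tissue was measured, so more cells of a type and more RNA per cell cannot be told apart. The tissue label was borne out by bright enterocyte genes, such as the fatty acid binding protein gene Fabp2, with a mean intensity of 9724 on the low P/S diet and 9793 on the control diet. Of 8 enterocyte markers 4 fell (Vil1, Lct, Sis and Anpep) and 0 rose in the limma fit, also 0 at an unadjusted p under 0.05. As background, 7.87% of all genes tested fell, and 14.6% of the genes at an intensity of 500 or more. The summed intensity of the enterocyte markers lay between 46884 and 55352 on low P/S arrays and between 55495 and 73209 on control arrays. Of 6 markers of crypt and proliferating cells 3 rose (Mki67, Top2a and Cdk1), against 17.8% of all genes tested. Pcna (0.34, adjusted p = 0.0593), Lgr5 (-0.14, adjusted p = 0.159) and Olfm4 (-0.0, adjusted p = 0.984) did not pass. Sums of the 6 were 4265 to 6035 on the low P/S diet and 3432 to 5453 on the control diet. Among 9 smooth muscle markers 0 passed in the limma fit, also 0 at an unadjusted p under 0.05, and their sums lay between 6934 and 10212 on low P/S arrays and between 8845 and 12658 on control arrays. Of the striated muscle markers Myh4, Myh7 and Actn3 were too dim to test. So were the adipose markers Lep, Ucp1 and Cidea and 4 of 5 exocrine pancreas markers. Sums of striated muscle markers were 575 to 634 on the low P/S diet and 603 to 668 on the control diet, those of adipose tissue 884 to 1518 on the low P/S diet and 879 to 1477 on the control diet, and those of exocrine pancreas 306 to 359 on the low P/S diet and 314 to 357 on the control diet. Of 3 tested T cell markers 2 fell (Cd3e and Cd8a), against 7.87% of all genes tested. Cd3g did not pass (-0.30, adjusted p = 0.0769) and Cd2 was too dim to test. Sums of the T cell markers were 477 to 742 on the low P/S diet and 640 to 788 on the control diet. The plasma cell gene Jchain rose (0.79, adjusted p = 3.39e-05), while Cd79a and Ms4a1 were too dim to test. Sums of these 3 B and plasma cell markers were 1795 to 2604 on the low P/S diet and 1113 to 1546 on the control diet. Low P/S array 3 stood apart, with Cd79a at 193, Ms4a1 at 168 and Cd2 at 112. On the other low P/S arrays Cd79a was 57.9 to 65.8, Ms4a1 44.6 to 48.4 and Cd2 56.7 to 66.6. The part of cell makeup in the subunit differences was not tested.

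Promoters of respiratory chain genes are known for sites of the nuclear respiratory factors, which is why the sequences upstream of some members are shown. NRF1 binds GCGCANGCG, the ETS factor GABP (also called NRF2) binds CCGGAAG, YY1 binds AANATGGCG and the estrogen-related receptors bind AAGGTCA. These letters were searched on both strands in the RefSeq window (GRCm38.p6, the C57BL/6J reference and not the FVB genome) from 250 bases before to 50 bases after each gene's start. The NRF1 letters read nearly alike on both strands, so 1 stretch can match on both. A promoter was found for 67 members, and 39 of them held at least 1 of the 4 motifs. The NRF1 letters stood in 19 members (28.4%), against 14.7% of the 9529 tested genes with a promoter. For the ETS letters it was 17 members (25.4%) against 19.2%, for YY1 10 (14.9%) against 5.69%, and for the estrogen-related receptors 7 (10.4%) against 4.0%. Printed are the 250 bases before the start, 5′ to 3′ on the gene's strand, with matches in capitals, for the member of smallest p that has a promoter to print in each complex, and for Cox6a1 and Atp5k as further members with matches.
Ndufb7 (chr8:83566508-83566757, plus strand, complex I): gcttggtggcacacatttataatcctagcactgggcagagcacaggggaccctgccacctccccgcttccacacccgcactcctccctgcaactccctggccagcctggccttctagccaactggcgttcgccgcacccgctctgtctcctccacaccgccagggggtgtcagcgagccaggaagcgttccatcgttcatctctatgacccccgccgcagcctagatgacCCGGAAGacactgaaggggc
Sdhd (chr9:50603850-50604099, minus strand, complex II): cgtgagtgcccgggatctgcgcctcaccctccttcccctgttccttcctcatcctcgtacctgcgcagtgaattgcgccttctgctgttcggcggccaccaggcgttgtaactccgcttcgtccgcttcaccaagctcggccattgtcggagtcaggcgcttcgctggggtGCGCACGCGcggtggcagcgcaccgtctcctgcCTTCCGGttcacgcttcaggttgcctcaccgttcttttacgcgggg
Uqcr10 (chr11:4704345-4704594, minus strand, complex III): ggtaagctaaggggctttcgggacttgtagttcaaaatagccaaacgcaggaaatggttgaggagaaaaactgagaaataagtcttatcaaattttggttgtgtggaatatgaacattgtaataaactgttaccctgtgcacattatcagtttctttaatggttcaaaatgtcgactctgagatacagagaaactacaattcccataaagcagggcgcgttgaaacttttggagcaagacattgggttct
Cox7a1 (chr7:30183921-30184170, plus strand, complex IV): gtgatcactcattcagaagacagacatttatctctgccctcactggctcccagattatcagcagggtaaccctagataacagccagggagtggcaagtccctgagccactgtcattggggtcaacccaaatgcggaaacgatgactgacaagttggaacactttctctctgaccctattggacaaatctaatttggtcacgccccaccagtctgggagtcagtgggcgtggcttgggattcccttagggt
Cox6a1 (chr5:115348959-115349208, minus strand, complex IV): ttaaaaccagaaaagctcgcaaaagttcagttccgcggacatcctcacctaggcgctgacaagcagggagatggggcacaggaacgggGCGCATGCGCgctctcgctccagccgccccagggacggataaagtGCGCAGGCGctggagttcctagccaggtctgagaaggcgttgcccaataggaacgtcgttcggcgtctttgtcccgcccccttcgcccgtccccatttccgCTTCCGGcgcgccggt
Atp5g1 (chr11:96075632-96075881, minus strand, complex V): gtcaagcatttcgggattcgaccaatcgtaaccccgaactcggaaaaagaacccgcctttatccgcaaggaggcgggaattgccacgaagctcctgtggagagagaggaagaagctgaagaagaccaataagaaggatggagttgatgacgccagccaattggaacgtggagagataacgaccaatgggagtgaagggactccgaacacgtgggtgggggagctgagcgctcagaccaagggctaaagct
Atp5k (chr5:108434400-108434649, minus strand, complex V): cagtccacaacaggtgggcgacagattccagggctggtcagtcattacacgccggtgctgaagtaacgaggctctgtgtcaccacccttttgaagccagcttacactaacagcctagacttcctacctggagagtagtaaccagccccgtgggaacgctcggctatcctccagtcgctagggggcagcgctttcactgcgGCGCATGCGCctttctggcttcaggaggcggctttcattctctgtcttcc

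In the printed stretches the ETS letters of Ndufb7 begin 20 bases before the start. Sdhd holds NRF1 letters beginning 79 bases and ETS letters 46 bases before the start. Cox6a1 holds NRF1 letters at 162 and 117 bases and ETS letters at 16 bases, and Atp5k holds NRF1 letters at 50 bases before the start. None of the 4 motifs stands in the printed stretches of Uqcr10, Cox7a1 and Atp5g1, which says only that these letters are not in these windows. Members with and without a motif had medians close to each other, a difference that was not tested. The median difference was 0.20 for the 19 tested members with the NRF1 letters, of which 14 rose, and 0.21 for the 46 without, of which 30 rose. With the ETS letters it was 0.22 over 17 members, of which 14 rose, and without them 0.20 over 48 members, of which 30 rose.

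Complex I oxidizes NADH and is the largest complex, with core subunits that carry the flavin and iron-sulphur clusters and many accessory subunits around them. Of its 35 tested genes 25 rose (71.4%, against the 17.8% of all genes) and 0 fell, with a median difference of 0.21 and a range of 0.02 to 0.38. For 8 of them (22.9%) all low P/S arrays lay above all control arrays, against 6.86% of all genes tested. The count of rising genes was 19 after quantile normalization, with a median of 0.14, and 18 after median centring, with a median of 0.16. Of all genes, 14.8% and 12.4% were higher under these scalings. Calls lost under both included those of Ndufb9, Ndufa13, Ndufa3, Ndufa6 and Ndufs6. Ndufa2, an accessory subunit of the arm that faces the matrix, had the smallest p. Its intensity was 550 to 624 with a median of 571 on the low P/S diet, against 429 to 465 with a median of 451 on the control diet. The lowest low P/S array lay above every control array, and the gene rose 1.30-fold (0.37 ± 0.05, adjusted p = 5.88e-05). The membrane arm subunit Ndufb7 measured 785 to 914 with a median of 850 on the low P/S diet and 612 to 762 with a median of 704 on the control diet, without overlap. It rose 1.23-fold (0.30 ± 0.06, adjusted p = 0.00223). Ndufa5, another matrix arm subunit, measured 502 to 681 with a median of 587 on the low P/S diet and 394 to 552 with a median of 443 on the control diet. In this gene 5 low P/S arrays lay above all control arrays and the lowest fell inside the control range, and the rise was 1.30-fold (0.38 ± 0.08, adjusted p = 0.00386).

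Similar values were found for other accessory subunits of complex I. Ndufb8, of the membrane arm, had 494 to 582 with a median of 548 on the low P/S diet and 401 to 491 with a median of 461 on the control diet (0.26 ± 0.06, adjusted p = 0.00386). Ndufa10, also of the membrane arm, had 1655 to 1837 with a median of 1733 on the low P/S diet and 1316 to 1611 with a median of 1471 on the control diet (0.25 ± 0.06, adjusted p = 0.00483). In both genes the diets did not overlap. Ndufb5, a further membrane arm subunit, had 1796 to 2108 with a median of 1945 on the low P/S diet and 1409 to 1930 with a median of 1555 on the control diet (0.30 ± 0.07, adjusted p = 0.00763). Its highest control array lay among the low P/S arrays. Named after their values were seen, the core subunit genes Ndufs1 (0.26), Ndufs3 (0.28), Ndufs7 (0.17), Ndufs8 (0.21) and Ndufv2 (0.24) rose as well, and Ndufv1, whose protein binds NADH, had a difference of 0.18 ± 0.07 (adjusted p = 0.061). The call of Ndufs7 was lost after quantile normalization (adjusted p = 0.225) and median centring (adjusted p = 0.0792). Ndufab1, the acyl carrier protein of mitochondrial fatty acid synthesis that is also a complex I subunit, rose by 0.32 ± 0.08 (adjusted p = 0.00658).

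The smallest difference in complex I was that of the membrane arm gene Ndufb3. It had 281 to 332 with a median of 309 on the low P/S diet and 284 to 320 with a median of 307 on the control diet. The diets overlapped (0.02 ± 0.05, adjusted p = 0.811), and the sign turned under both other scalings and without low P/S array 5. Ndufa4 carries a complex I name although its protein is now placed with complex IV. It had 3650 to 4162 with a median of 3823 on the low P/S diet and 3051 to 3764 with a median of 3322 on the control diet, with overlap, and rose 1.16-fold (0.21 ± 0.06, adjusted p = 0.0101), which median centring moved to an adjusted p of 0.0513. Its paralog Ndufa4l2, known as a hypoxia-induced gene, was too dim to test, at 73.9 on the low P/S diet and 75 on the control diet.

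Complex II is succinate dehydrogenase, which also works in the tricarboxylic acid cycle. Of its 4 genes Sdhd rose (25% of 4 genes, with the 17.8% of all genes as the background), the other 3 did not pass, and the median difference was 0.14. Sdhd, a membrane anchor, had 2164 to 2431 with a median of 2357 on the low P/S diet and 1816 to 2195 with a median of 2069 on the control diet. The highest control array reached into the low P/S range, and the rise was 1.14-fold (0.19 ± 0.06, adjusted p = 0.0189), lost under median centring (adjusted p = 0.0638). The other anchor gene, Sdhc, had 1755 to 1928 with a median of 1875 on the low P/S diet and 1476 to 1820 with a median of 1691 on the control diet (0.15 ± 0.05, adjusted p = 0.0519). Sdha, the flavoprotein, had 2124 to 2333 with a median of 2204 on the low P/S diet and 1850 to 2198 with a median of 2053 on the control diet (0.13 ± 0.05, adjusted p = 0.0775). The iron-sulphur gene Sdhb had 1049 to 1216 with a median of 1082 on the low P/S diet and 904 to 1160 with a median of 1035 on the control diet (0.11 ± 0.06, adjusted p = 0.215). All 4 genes overlapped between the diets. The count of rising genes was 2 without low P/S array 6 and 3 without control array 5.

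Complex III, the cytochrome bc1 complex, had the largest share of rising genes of the 5 complexes, a difference between complexes that was not tested. Of its 9 genes 8 rose (88.9%, against the 17.8% of all genes), with a median difference of 0.24 and a range of 0.15 to 0.39. The count of rising genes was 6 after quantile normalization and 6 after median centring. Among the 8 was Uqcrq (0.20 ± 0.07, adjusted p = 0.0391), whose call was lost when any 1 of 9 arrays was left out. Its call was also lost after quantile normalization (adjusted p = 0.123) and median centring (adjusted p = 0.0989). In 6 of the 9 (66.7%) all low P/S arrays lay above all control arrays, against 6.86% of all genes tested. Uqcr10, a small accessory subunit, had 828 to 910 with a median of 902 on the low P/S diet and 582 to 748 with a median of 688 on the control diet. It rose 1.31-fold (0.39 ± 0.06, adjusted p = 0.000453). The small subunit gene Uqcr11 had 496 to 539 with a median of 514 on the low P/S diet and 364 to 456 with a median of 425 on the control diet, a rise of 1.23-fold (0.29 ± 0.05, adjusted p = 0.00111). In both genes every low P/S array lay above every control array.

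The catalytic subunits of complex III include the iron-sulphur protein, encoded by Uqcrfs1, and cytochrome c1, encoded by Cyc1. Uqcrfs1 had 796 to 908 with a median of 834 on the low P/S diet and 613 to 769 with a median of 710 on the control diet (0.28 ± 0.06, adjusted p = 0.0027). Cyc1 had 2376 to 2651 with a median of 2481 on the low P/S diet and 1889 to 2320 with a median of 2186 on the control diet (0.22 ± 0.05, adjusted p = 0.00836). Neither gene overlapped between the diets. Uqcrh, the hinge protein that docks cytochrome c to the complex, had 2207 to 2839 with a median of 2332 on the low P/S diet and 1632 to 2051 with a median of 1961 on the control diet (0.33 ± 0.07, adjusted p = 0.00332), and its lowest control array stood apart from the other control arrays. The core protein gene Uqcrc2 had 3469 to 4069 with a median of 3707 on the low P/S diet and 2790 to 3450 with a median of 3203 on the control diet (0.24 ± 0.06, adjusted p = 0.00875). Its partner Uqcrc1 averaged 2636 on the low P/S diet and 2323 on the control diet (0.18 ± 0.06, adjusted p = 0.0267), with overlapping arrays. That call was lost under quantile normalization (adjusted p = 0.0688) and median centring (adjusted p = 0.106). The ubiquinone-binding protein gene Uqcrb averaged 2501 on the low P/S diet and 2251 on the control diet and did not pass (0.15 ± 0.06, adjusted p = 0.0592).

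**Figure D3:**
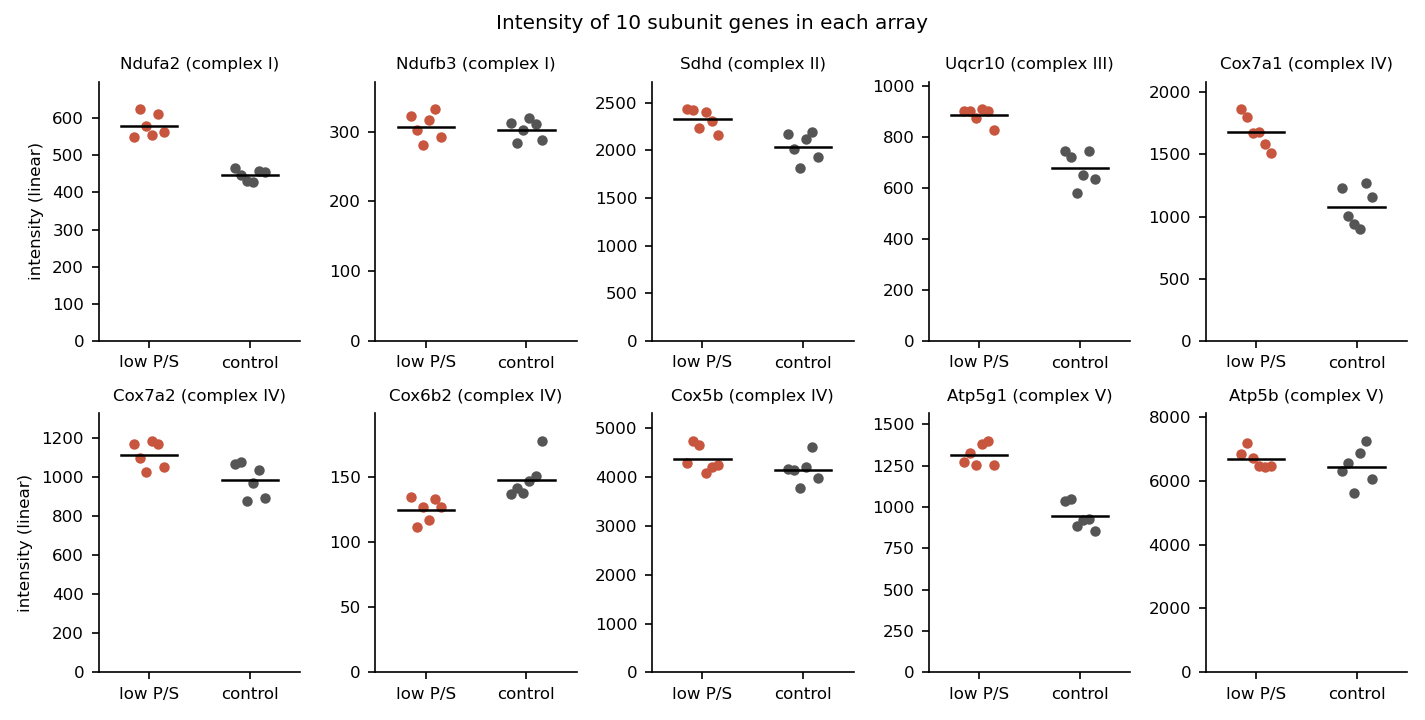
Intensity on a linear axis starting at 0 for 10 member genes, 1 point for each of 6 low P/S arrays (left, red) and 6 control arrays (right, grey), with bars at the geometric means. Ndufa2, Uqcr10, Cox7a1 and Atp5g1 separate the diets with the low P/S arrays higher, Cox6b2 separates them with the low P/S arrays lower, and Ndufb3, Sdhd, Cox7a2, Cox5b and Atp5b overlap.

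Complex IV, cytochrome c oxidase, was the most mixed, and it is the complex whose nuclear subunits come as isoforms of different tissues. Of its 15 tested genes 8 rose (53.3%, against the 17.8% of all genes) and 1 fell, with a median difference of 0.18. The number that rose was 5 after quantile normalization and 4 after median centring. It was also 5 when low P/S array 2, low P/S array 5, control array 3 or control array 6 was left out. With Ndufa4 counted here it was 9. Cox7a1 encodes the isoform of subunit VIIa best known from heart and skeletal muscle. It had 1514 to 1862 with a median of 1676 on the low P/S diet and 898 to 1267 with a median of 1080 on the control diet. The diets did not overlap, and the rise of 1.57-fold (0.65 ± 0.08, adjusted p = 8.59e-05) was the largest of all members under the deposited scaling. Beside it, 0 of 9 smooth muscle and 0 of 3 tested striated muscle genes passed in the limma fit, also 0 at an unadjusted p under 0.05, and Ckm, the muscle creatine kinase gene, averaged 147 on the low P/S diet and 159 on the control diet. The part of muscle content in the Cox7a1 value was not tested. Cox7a2, the isoform found in most tissues, had 1024 to 1186 with a median of 1134 on the low P/S diet and 878 to 1077 with a median of 1003 on the control diet, with overlap. Its rise of 1.13-fold (0.18 ± 0.06, adjusted p = 0.0444) was lost when any 1 of 7 arrays was left out, with adjusted p-values up to 0.104, and after quantile normalization (adjusted p = 0.108) or median centring (adjusted p = 0.0996). The related gene Cox7a2l, whose product takes part in joining complexes III and IV into supercomplexes, had 759 to 897 with a median of 820 on the low P/S diet and 589 to 714 with a median of 640 on the control diet. It separated the diets and rose 1.27-fold (0.35 ± 0.06, adjusted p = 0.000671).

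Further subunits of complex IV come as a widely expressed form and forms of other tissues. In subunit VIb both forms passed, in opposite directions. Cox6b1, the widely expressed form, had 1634 to 2013 with a median of 1760 on the low P/S diet and 1384 to 1679 with a median of 1466 on the control diet. It rose 1.21-fold (0.27 ± 0.06, adjusted p = 0.00468), though not after quantile normalization (adjusted p = 0.0882). Cox6b2, known as the testis form, had 112 to 135 with a median of 127 on the low P/S diet and 137 to 178 with a median of 145 on the control diet. All low P/S arrays lay below all control arrays, and the gene fell by 0.25 ± 0.07 on the log2 scale (adjusted p = 0.0139), not far above the intensity below which genes were left out (85.6). It was no longer tested with a filter at the 60th percentile. In subunit VIa, the widely expressed Cox6a1 had 2604 to 3052 with a median of 2735 on the low P/S diet and 2229 to 2582 with a median of 2456 on the control diet. It rose 1.14-fold without overlap (0.19 ± 0.05, adjusted p = 0.0141), which median centring moved to an adjusted p of 0.0697. The heart and muscle form Cox6a2, at 107 on the low P/S diet and 116 on the control diet, did not pass (-0.12 ± 0.07, adjusted p = 0.193).

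Of the isoforms of subunits IV and VIII, Cox4i1 alone passed. Cox4i1, the common form of subunit IV, had 1925 to 2657 with a median of 2086 on the low P/S diet and 1645 to 2027 with a median of 1841 on the control diet (0.26 ± 0.08, adjusted p = 0.0293). Its arrays overlapped and the call was lost when any 1 of 5 arrays was left out and after quantile normalization (adjusted p = 0.106) or median centring (adjusted p = 0.0743). Cox4i2, the form known from lung, averaged 94.5 on the low P/S diet and 99.6 on the control diet and did not pass (-0.08 ± 0.06, adjusted p = 0.344). Of subunit VIII, Cox8a averaged 1682 on the low P/S diet and 1516 on the control diet and did not pass (0.15 ± 0.06, adjusted p = 0.1). The testis form Cox8c averaged 96.9 on the low P/S diet and 99.3 on the control diet (-0.03 ± 0.05, adjusted p = 0.65), and the muscle form Cox8b was too dim to test, at 78.6 on the low P/S diet and 84.5 on the control diet. The 4 tested members with a difference below 0 were thus all dim isoform genes of complex IV known from other tissues.

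Cox6c, a further subunit of complex IV, had 3207 to 3676 with a median of 3483 on the low P/S diet and 2686 to 3134 with a median of 2928 on the control diet. It separated the diets and rose 1.17-fold (0.23 ± 0.05, adjusted p = 0.00364). Cox7b averaged 2744 on the low P/S diet and 2430 on the control diet (0.18 ± 0.06, adjusted p = 0.0297), a call lost when any 1 of 5 arrays was left out and after median centring (adjusted p = 0.101). Its testis paralog Cox7b2 was too dim to test, at 45.5 on the low P/S diet and 47.3 on the control diet. Cox5b, which binds zinc, had 4082 to 4743 with a median of 4269 on the low P/S diet and 3777 to 4619 with a median of 4157 on the control diet. It overlapped and did not pass (0.08 ± 0.06, adjusted p = 0.338).

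Complex V consists of a catalytic head, which protrudes into the matrix, and a membrane part with a rotating ring of c subunits. Of its 17 genes 11 rose (64.7%, against the 17.8% of all genes) and 0 fell, with a median difference of 0.17 and a range of 0.06 to 0.48. The count of rising genes was 6 after quantile normalization and after median centring, 7 without low P/S array 1, and 6 without control array 3 or control array 6. The 3 genes Atp5g1, Atp5g2 and Atp5g3 encode the same mature c subunit behind different import sequences. Atp5g1 had 1255 to 1400 with a median of 1297 on the low P/S diet and 857 to 1051 with a median of 925 on the control diet. The diets were well apart, and the rise of 1.39-fold (0.48 ± 0.06) had the smallest adjusted p of the members (4.9e-05). Atp5g2 had 1343 to 1421 with a median of 1400 on the low P/S diet and 1044 to 1269 with a median of 1144 on the control diet, a rise of 1.22-fold without overlap (0.28 ± 0.05, adjusted p = 0.000843). That call rested on 1 of its 3 probe sets, since the others had differences of 0.13 (adjusted p = 0.504) and 0.01 (adjusted p = 0.961), and their mean did not pass (adjusted p = 0.157). Atp5g3 had 4026 to 5102 with a median of 4571 on the low P/S diet and 3951 to 4547 with a median of 4375 on the control diet. It overlapped and did not pass (0.08 ± 0.06, adjusted p = 0.337).

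Other small subunits of the membrane part rose too, but Atp5md did not pass (0.16 ± 0.08, adjusted p = 0.167). Atp5j2, subunit f, had 2316 to 2757 with a median of 2641 on the low P/S diet and 1934 to 2280 with a median of 2048 on the control diet (0.33 ± 0.06, adjusted p = 0.000671). Atp5k, subunit e of the dimer contact, had 704 to 824 with a median of 780 on the low P/S diet and 573 to 683 with a median of 603 on the control diet (0.31 ± 0.06, adjusted p = 0.00142). Atp5mpl, a small membrane proteolipid, had 2053 to 2380 with a median of 2195 on the low P/S diet and 1656 to 1942 with a median of 1867 on the control diet (0.29 ± 0.06, adjusted p = 0.00161). In these 3 genes the diets did not overlap. The catalytic head gave other values. Atp5b, the beta subunit that carries the catalytic site, had 6423 to 7186 with a median of 6586 on the low P/S diet and 5624 to 7243 with a median of 6411 on the control diet (0.06 ± 0.06, adjusted p = 0.508). Atp5a1, the alpha subunit, had 6427 to 7270 with a median of 6893 on the low P/S diet and 5617 to 7387 with a median of 6173 on the control diet (0.10 ± 0.06, adjusted p = 0.252). In both the control arrays spanned the whole low P/S range. Of the other head and stalk genes, named after their values were seen, the gamma subunit Atp5c1 (0.11, adjusted p = 0.177) and the delta subunit Atp5d (0.17, adjusted p = 0.0605) did not pass, and the epsilon subunit Atp5e (0.22) and the stator genes Atp5pb (0.21), Atp5o (0.16) and Atp5h (0.14) rose. Each of these 4 calls was lost after median centring (adjusted p = 0.0658 for Atp5e, 0.0501 for Atp5pb, 0.13 for Atp5o and 0.175 for Atp5h). After quantile normalization those of Atp5e (adjusted p = 0.0581), Atp5o (0.299) and Atp5h (0.0882) were lost too. The calls of Atp5o and Atp5h were each also lost when any 1 of 7 arrays was left out, and that of Atp5pb when any 1 of 4 was.

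Within complex V the brighter probe sets had the smaller differences. Over its 17 genes Spearman's rho between mean intensity and difference was -0.83 and Pearson's r with log2 intensity was -0.73, given as a description since the genes share the same 12 arrays. Over the 67 members at 500 or more rho was -0.36, and over all 80 it was -0.04. Complexes I and IV ran the other way, with rho of 0.25 and r of 0.28 over 35 genes of complex I and rho of 0.45 and r of 0.64 over 15 genes of complex IV. In complex IV the genes below 0 (Cox6b2, Cox6a2, Cox8c and Cox4i2) were also its dimmest tested genes, at mean intensities of 97 to 136. Cox5b, its brightest gene, had a difference of 0.08. Over all genes tested rho was 0.21 and r was 0.09, and over the 2585 genes at 500 or more rho was -0.0 and r was -0.04. Probe set intensities also differ by probe sequence, so they do not rank the transcripts by amount.

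**Figure D4:**
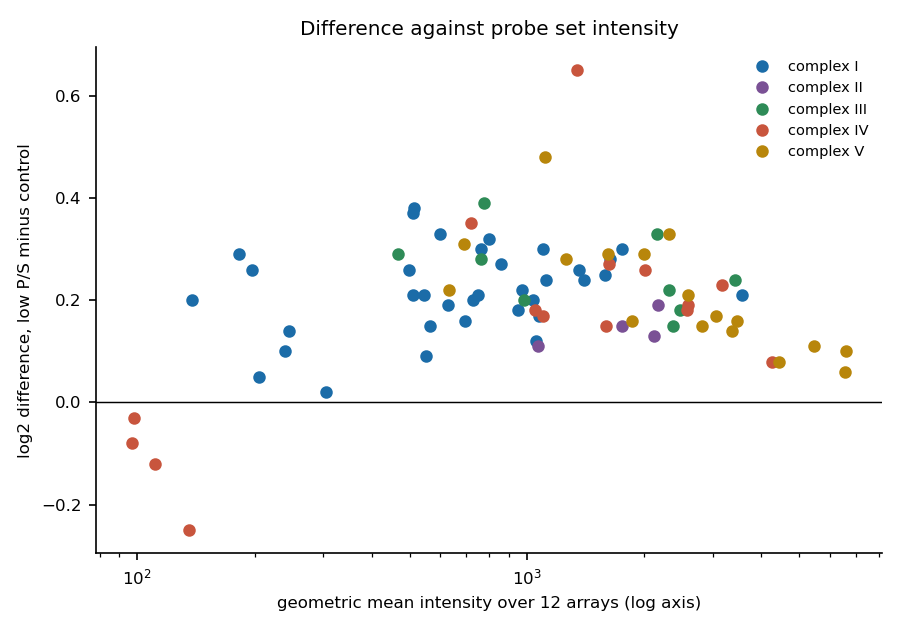
Log2 difference, low P/S minus control (vertical axis), against the geometric mean intensity over 12 arrays (horizontal log axis) for the 80 tested members, coloured by complex. The dimmest complex IV genes lie below 0, most genes lie between 0.1 and 0.4, and complex V falls towards 0.06 at its bright end.

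Several probe sets were available for 17 members and bore on whether the chosen one stood for the gene. Of 23 other probe sets bright enough to test, 22 had the sign of the one used, 9 passed as higher, 0 passed as lower, and their median difference was 0.20, with adjustment over 19038 probe sets. Another probe set of Atp5g1 had a difference of 0.25 (adjusted p = 0.0185), one of Cox7a2l 0.25 (adjusted p = 0.00401) and one of Uqcr11 0.24 (adjusted p = 0.00532). Cox5b, whose brightest probe set did not pass, had a second one that did (0.23, adjusted p = 0.0161). The exception in sign was 1 of the 5 probe sets of Atp5l, subunit g, at -0.07. Hybridization shared with processed pseudogenes, which many of these genes have, was not tested.

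Genes that work beside the complexes were examined in lists. Electrons from fatty acid oxidation reach ubiquinone through the electron transfer flavoprotein, and Etfdh (0.48, adjusted p = 0.00096), Etfb (0.36, adjusted p = 0.00097) and Etfa (0.21, adjusted p = 0.00611) all rose, Etfa not after quantile normalization (adjusted p = 0.0884). In that list of 8 tested genes 4 rose (50%) and 1 fell, against 17.8% and 7.87% of all genes tested. Aifm1, a mitochondrial flavoprotein needed for complex I, rose (0.27, adjusted p = 0.00543), Gpd2, the mitochondrial glycerol-3-phosphate dehydrogenase, fell (-0.24, adjusted p = 0.0292), and the cytochrome c gene Cycs did not pass (0.25, adjusted p = 0.0582), though it did after quantile normalization (adjusted p = 0.0491). The fall of Gpd2 was lost when any 1 of 6 arrays was left out. Of 11 genes of ubiquinone synthesis 6 rose (54.5%, against the same 17.8%), led by Coq4 (0.49, adjusted p = 0.00106), Coq5 (0.47, adjusted p = 0.00225) and Coq3 (0.29, adjusted p = 0.00445). In the tricarboxylic acid cycle 7 of 12 rose (58.3%, against 17.8%), among them fumarase Fh1 (0.37, adjusted p = 0.000385), Idh3b (0.32, adjusted p = 0.000704) and Suclg1 (0.34, adjusted p = 0.00108). Ogdh, of the 2-oxoglutarate dehydrogenase, fell (-0.32, adjusted p = 0.00319), and citrate synthase Cs stood at 0.01 (adjusted p = 0.89). Medians of these 3 lists were 0.23, 0.18 and 0.25.

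Of the assembly factors, 7 of 14 tested for complex I rose (50%, against 17.8% of all genes), with a median of 0.16, led by Foxred1 (0.34, adjusted p = 0.000379), Acad9 (0.25, adjusted p = 0.0137) and Timmdc1 (0.18, adjusted p = 0.0152; 0.0501 after median centring). Of 18 complex IV factors 9 rose (50%), with a median of 0.15. Among them were Lrpprc, which stabilizes mitochondrial messenger RNA (0.44, adjusted p = 0.00093), the haem A synthesis gene Cox10 (0.29, adjusted p = 0.00168) and Cmc2 (0.33, adjusted p = 0.00238). The shorter lists gave 1 of 4 for complex II (Sdhaf1, 0.33, adjusted p = 0.000385), 1 of 5 for complex III (Bcs1l, which inserts the iron-sulphur protein, 0.20, adjusted p = 0.00631) and 2 of 4 for complex V (Tmem70, 0.23, adjusted p = 0.00308, and Atpaf1, 0.20, adjusted p = 0.00409). The shares of complexes II (25%) and III (20%) lie near the 17.8% of all genes. Sdhaf2 (0.15, adjusted p = 0.0823) and Sdhaf3 (0.04, adjusted p = 0.607) of complex II and Uqcc1 (0.23, adjusted p = 0.0543) and Uqcc3 (0.13, adjusted p = 0.105) of complex III did not pass. In these 5 lists 0 genes fell in the limma fit, also 0 at an unadjusted p under 0.05. Atpif1, the inhibitor of ATP synthase reversal, stood at 0.05 (adjusted p = 0.532).

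Carriers and mitochondrially encoded genes had medians near 0. No uncoupling protein gene could be tested. Ucp1, Ucp3 and the carrier gene Slc25a31 were too dim, and Ucp2 had no probe set naming it alone. Of 6 tested genes of adenine nucleotide and phosphate exchange and uncoupling, 1 rose, the outer membrane channel gene Vdac3 (0.21, adjusted p = 0.033), a share of 16.7% that lies near the 17.8% of all genes, and the median was 0.01. That call was lost after quantile normalization (adjusted p = 0.0672), after median centring (adjusted p = 0.0638) and when any 1 of 6 arrays was left out. Of the other channel genes, Vdac2 stood at -0.12 (adjusted p = 0.132) and Vdac1 at 0.04 (adjusted p = 0.519). Vdac2 passed as lower after quantile normalization (adjusted p = 0.00462) and median centring (adjusted p = 0.0279), so under those scalings the gene of the list that passed was Vdac2 and not Vdac3. The nucleotide carrier gene Slc25a5 had a difference of -0.04 (adjusted p = 0.696). Of the 13 protein genes of mitochondrial DNA, 2 had a probe set naming that gene alone. ND3, a complex I subunit, averaged 9348 on the low P/S diet and 9464 on the control diet (-0.02 ± 0.07, adjusted p = 0.875). COX2, a complex IV subunit, averaged 7291 on the low P/S diet and 7332 on the control diet (-0.01 ± 0.08, adjusted p = 0.952). Their control arrays spanned 8139 to 10707 and 6259 to 8665, and the difference between these genes and the nuclear subunits was not tested.

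**Figure D5:**
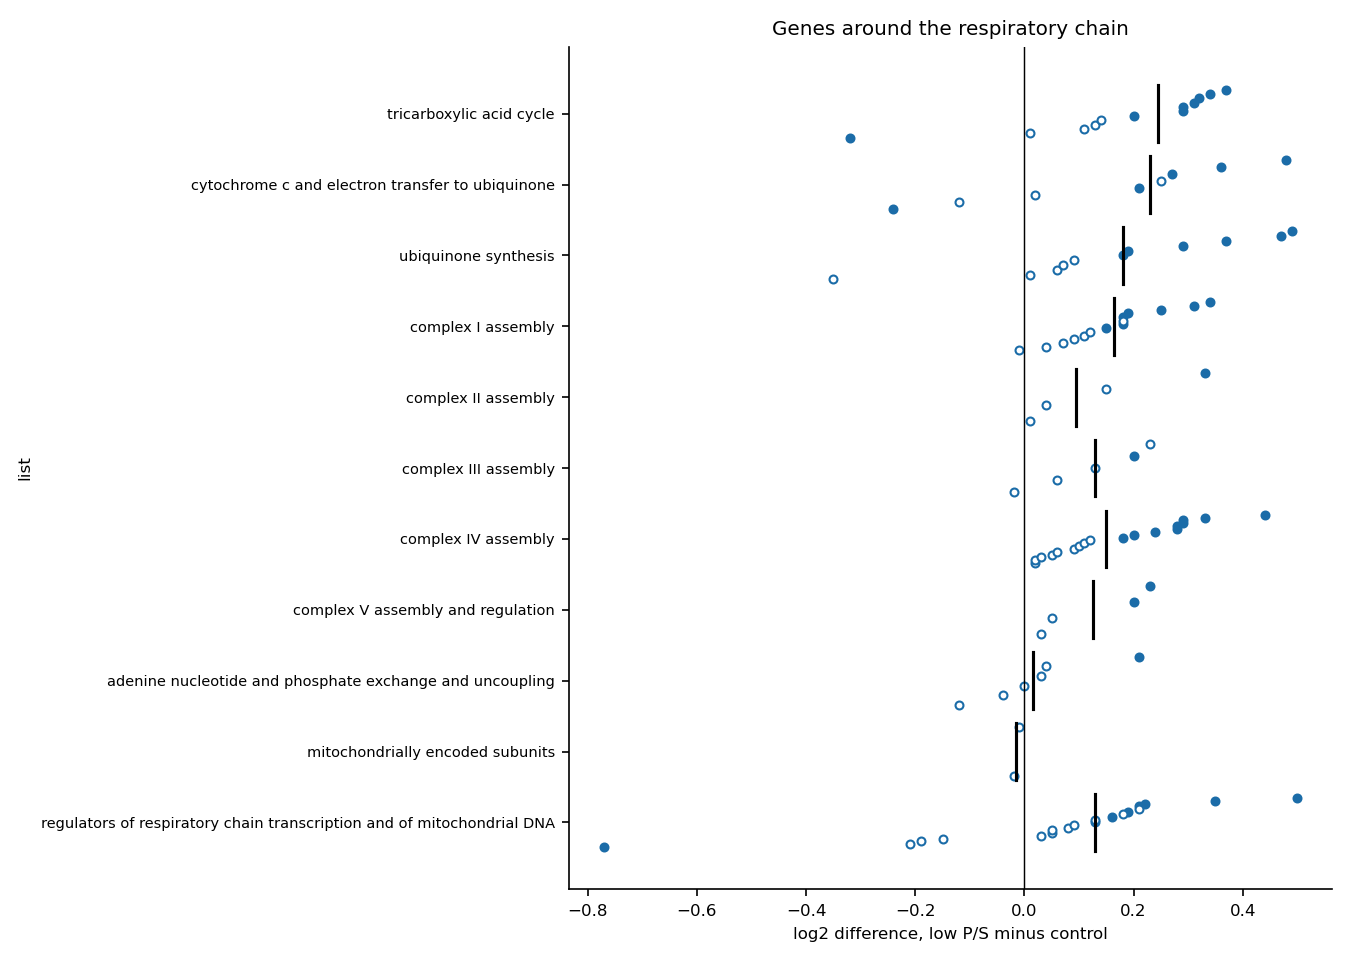
Log2 difference, low P/S minus control (horizontal axis), of the tested genes of 11 lists around the respiratory chain (rows). Filled points passed, open points did not, and the bar is the list's median; the vertical scatter within a row has no meaning. Carriers and mitochondrially encoded genes centre near 0, and the regulators hold the lowest point, Ppargc1a at -0.77.

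Regulators of respiratory chain transcription and of mitochondrial DNA moved in both directions, with 6 of 19 higher (31.6%) and 1 lower, against 17.8% and 7.87% of all genes, and a median of 0.13. Ppargc1a encodes the coactivator best known for driving mitochondrial biogenesis. It had 310 to 580 with a median of 411 on the low P/S diet and 659 to 861 with a median of 720 on the control diet. All low P/S arrays lay below all control arrays, and the gene fell by 0.77 ± 0.12 on the log2 scale (adjusted p = 0.000463), against the direction of most subunit genes. Its relative Ppargc1b had 175 to 218 with a median of 192 on the low P/S diet and 130 to 169 with a median of 153 on the control diet, and rose without overlap (0.35 ± 0.06, adjusted p = 0.00109). Tfb2m, a factor of mitochondrial transcription start, had 541 to 736 with a median of 642 on the low P/S diet and 372 to 539 with a median of 468 on the control diet, also without overlap (0.50 ± 0.09, adjusted p = 0.00112). The mitochondrial RNA polymerase gene Polrmt (0.19, adjusted p = 0.00677), the ribosomal RNA methyltransferase gene Tfb1m (0.21, adjusted p = 0.00809), the coactivator gene Pprc1 (0.22, adjusted p = 0.0328) and the helicase gene Twnk (0.16, adjusted p = 0.0476) rose as well. The call of Pprc1 was lost after median centring (adjusted p = 0.101) and without any 1 of 7 arrays, and that of Twnk after quantile normalization (adjusted p = 0.0501), median centring (adjusted p = 0.18) and without any 1 of 10 arrays.

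With the deposited scaling the factors whose motifs were searched in the promoters did not pass. Nrf1 stood at 0.03 (adjusted p = 0.779), Gabpa at 0.08 (adjusted p = 0.463), Yy1 at 0.05 (adjusted p = 0.591) and Esrra at -0.15 (adjusted p = 0.0877). Esrra passed as lower after quantile normalization (adjusted p = 0.0422) and median centring (adjusted p = 0.0403). The partner genes Gabpb1 and Gabpb2 stood at 0.09 and 0.13 and Esrrg at 0.05, and none of the 3 passed, while Esrrb was too dim to test. Tfam, which packages mitochondrial DNA, stood at 0.21 (adjusted p = 0.0798), and the DNA polymerase gene Polg at 0.18 (adjusted p = 0.0543). The fatty acid receptor genes Ppara and Ppard stood at -0.21 (adjusted p = 0.055) and -0.19 (adjusted p = 0.0601), and Hif1a at 0.13 (adjusted p = 0.424). Both receptor genes passed as lower after quantile normalization (adjusted p = 0.0235 for Ppara and 0.0264 for Ppard) and median centring (0.0242 for Ppara and 0.027 for Ppard).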

How the data were processed

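RNA of small intestine was measured on Affymetrix whole-transcript arrays from 500 ng of total RNA, labelled without removal of ribosomal RNA per the labels' protocols. The deposited values are linear intensity values, 1 per probe set and array, between 17.7 and 20294. The sources used here do not give how the authors summarized and scaled the intensity values, which limits small differences shared by many genes. Of 34760 probe sets, 21640 named 1 gene symbol, 1321 several and 11799 none. Names came from the platform annotation and were compared with current ones by Entrez ID, which matched 21553 and changed 0. The brightest probe set by its mean over 12 arrays stood for each of 19937 genes, and 6 probe sets of subunit symbols that named several symbols were left out.

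Diet was the only term of the two-sided fit of log2 values with limma 3.58.1 (lmFit, eBayes; R 4.3.3). The 7975 genes with a mean level under the 40th percentile (intensity 85.6) were left out, and the Benjamini-Hochberg adjustment ran over the other 11962. The median standard error was 0.061. Lists are described by counts and medians beside all genes tested, with no test of their own. The steps were tested on simulated data. Of 50 planted differences of 0.25, 26 were recovered, and of 50 of 0.5, 43 were, with 15 false among 184 calls. Differences of the size seen in the members can thus go uncalled. The real data held 3074 calls, so this recovery need not carry over to them. Tables and figures used Python 3.11.15, NumPy 2.4.6, SciPy 1.17.1, pandas 2.3.3 and matplotlib 3.10.9.

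The members, lists and tests were chosen with earlier results of these data known. Named members were the 5 of smallest p, the 2 brightest and the 1 of largest p in each complex, every member that fell, isoforms of one subunit, the Sdh genes and Cyc1. From each further list the 3 genes of smallest p and all regulators were named. Other genes named were chosen after their values were seen. The intensity scale also lets unequal probe sequences set levels, so levels are not compared between genes.

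Alternatives were quantile normalization, median centring, a pseudocount of 16, array weights, averaged probe sets, a robust prior with trend, no filter or one at the 60th percentile, each array left out, and the replicate number as a block. Arrays of both diets share numbers, but same-numbered arrays correlated between -0.11 and 0.42 in their deviations, so the numbers were not taken as pairs. Leaving out control arrays 1 and 2, and fitting each probe set, were added after seeing the data. Promoter sequences are those of RefSeq on GRCm38.p6.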

Additional observations from a re-analysis of the deposited data

Results flagged for a closer look

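Of 102 groups of 6 arrays examined, for the 45 named members and for the array medians of all members and of each complex, 3 had an array far from the rest of its diet by Dixon's criterion, which chance meets in about 1 in 20 groups. The intensity of Uqcrh was 1632 on control array 3, while the other control arrays lay between 1922 and 2051. Cox6b2 was at 178 on control array 6, with 137 to 151 on the other control arrays. Cox7b2, too dim to be tested, was at 47.8 on low P/S array 6, with 44.6 to 45.6 on the other low P/S arrays.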

How the results depend on the processing

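After quantile normalization the median difference of the members was 0.13, that of complex II 0.05 and that of complex IV 0.09. The genes higher were then 19 in complex I, 1 in complex II, 6 in complex III, 5 in complex IV and 6 in complex V. After median centring 34 members were higher, with 18 in complex I, 0 in complex II, 6 in complex III, 4 in complex IV and 6 in complex V. With a filter at the 60th percentile 0 members were lower, 0 of them in complex IV, because Cox6b2 was no longer tested, and without control arrays 1 and 2 there were 2, both in complex IV, beside 54 higher. Without control arrays 1 and 2, 22.7% of all genes were higher, against 17.8% with all arrays. In complex II 2 genes were higher with the filter at the 60th percentile, with array weights and with a pseudocount of 16. With 1 array left out, the number of higher members ranged from 39 to 54 in all, from 21 to 26 in complex I, from 1 to 3 in complex II, from 6 to 9 in complex III, from 5 to 9 in complex IV and from 6 to 11 in complex V, and 1 was lower each time. In the same fits the share of all genes called higher ranged from 13.5% to 19.7%. The difference of Ndufb3 changed sign, to -0.05 after quantile normalization, -0.04 after median centring and -0.0027 without low P/S replicate 5; with 1 array left out it reached at most 0.04. The cause of these changes was not tested. Over 42 named subunit genes, 930 values were compared, of which 877 kept direction and call, 36 lost the call, 14 gained it and 3 changed sign; 26 genes kept both throughout. With the replicate number as a block 59 members were higher and 1 lower, with a median of 0.21, and 1 of 42 named subunit genes, Uqcrb, changed its call (adjusted p = 0.0232). With this block 20.5% of all genes were higher, against 17.8% without it. Among the named genes of other lists Cycs (adjusted p = 0.00418), Polg (0.0201), Uqcc1 (0.034), Ppara (0.0341) and Ppard (0.0474) then passed and Twnk did not (0.0565). Of 6 low P/S arrays, 2 correlated best with the control array of their own number. A repeat without pseudogenes and without the genes Atp5s and Atp5sl was not run, since the members held none of them. With 6 arrays per diet the median standard error was 0.061, and the smallest difference of a member that passed was 0.14.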
